A study of Mus musculus with 4 samples.

Results

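The transcripts of 39 nuclear receptor genes were examined in mouse liver. The genes were taken by their symbols from a list of this receptor superfamily, and all 39 were found among the 24138 rows of the expression table. Poly(A) RNA was sequenced from 4 whole livers, numbered 1 to 4 as in the labels, which came from male mice of the C57BL/6J strain at 18 weeks of age. The mice had received the FAT-MASH diet, which serves as a model of the fatty liver inflammation called MASH, and RvD1, that is resolvin D1, a lipid mediator made from docosahexaenoic acid. The livers form a single group with no control group analysed here, so the values describe levels and the spread between treated livers, and no effect of the diet or of RvD1 can be read from them.

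Nuclear receptors are transcription factors that carry a DNA-binding domain and, in most of them, a ligand-binding pocket for a small lipophilic molecule such as a sterol, a fatty acid, a bile acid, a retinoid, a thyroid hormone or a steroid hormone. Many of them bind DNA as a heterodimer with a retinoid X receptor (RXR), others as homodimers or monomers, and ligand exchanges corepressor proteins for coactivators. In liver they connect the supply of these ligands to genes of lipid, bile acid, glucose and drug metabolism. Some receptors are orphans, for which a natural ligand is not known or not agreed.

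The values are FPKM, fragments per kilobase of transcript, scaled to the mapped fragments of each library, so levels of different genes can be set side by side within a liver. The libraries held roughly 17900000 to 19500000 fragments by an approximate estimate, whose window of values can itself set the result. By it, 1 fragment on a transcript of 1 kb was worth 0.0512 to 0.0558 FPKM. Fragment numbers given below rest on this estimate. A total of 24 of the 39 receptor genes had a mean of at least 1 FPKM and are called expressed below, against 43.7% of all rows in the table. A further 9 were below 1 FPKM but above 0 in at least 1 liver, and 6 were listed at 0 in all 4 livers. A listed 0 can be a failed estimate in this table, since Scd1, an abundant desaturase of liver, was also listed at 0 in all 4 livers. The libraries come from whole liver, in which fewer cells of a type and less RNA per cell cannot be told apart. Of the hepatocyte markers, 8 of 8 were expressed, with a summed level of 32737 to 44322 FPKM.

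The start regions of 5 of the expressed receptors are shown because these genes reached at least 13 FPKM in every liver and differ widely in their CpG dinucleotides. Each has a single start in the RefSeq table (GRCm38.p6), and the 250 bases before that start are printed 5′ to 3′ on the strand of the gene, with every CpG in capitals. They lie at chr1:171213720-171213969 (plus strand) for Nr1i3, chr16:38294825-38295074 (minus strand) for Nr1i2, chr7:44553966-44554215 (minus strand) for Nr1h2, chr19:6921809-6922058 (minus strand) for Esrra and chr8:71381953-71382202 (minus strand) for Nr2f6.
Nr1i3: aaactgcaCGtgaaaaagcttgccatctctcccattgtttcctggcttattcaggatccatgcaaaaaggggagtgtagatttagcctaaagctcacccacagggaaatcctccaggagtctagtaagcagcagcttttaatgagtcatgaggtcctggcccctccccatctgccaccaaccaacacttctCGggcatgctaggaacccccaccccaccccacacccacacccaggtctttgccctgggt
Nr1i2: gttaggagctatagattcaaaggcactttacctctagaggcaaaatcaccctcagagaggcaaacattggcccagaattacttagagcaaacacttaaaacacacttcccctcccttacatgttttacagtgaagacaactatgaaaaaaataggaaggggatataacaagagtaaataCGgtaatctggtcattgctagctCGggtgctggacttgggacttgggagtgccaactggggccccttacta
Nr1h2: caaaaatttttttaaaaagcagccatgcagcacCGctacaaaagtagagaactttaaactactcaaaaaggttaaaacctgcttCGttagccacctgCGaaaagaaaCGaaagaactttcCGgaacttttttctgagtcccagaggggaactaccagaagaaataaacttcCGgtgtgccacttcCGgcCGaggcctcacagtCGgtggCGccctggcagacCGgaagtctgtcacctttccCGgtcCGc
Esrra: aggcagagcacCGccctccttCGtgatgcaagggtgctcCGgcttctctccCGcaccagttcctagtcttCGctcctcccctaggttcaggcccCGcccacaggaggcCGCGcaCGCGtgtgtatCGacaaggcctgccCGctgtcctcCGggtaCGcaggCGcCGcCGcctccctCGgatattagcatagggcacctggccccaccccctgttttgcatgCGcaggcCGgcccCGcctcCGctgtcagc
Nr2f6: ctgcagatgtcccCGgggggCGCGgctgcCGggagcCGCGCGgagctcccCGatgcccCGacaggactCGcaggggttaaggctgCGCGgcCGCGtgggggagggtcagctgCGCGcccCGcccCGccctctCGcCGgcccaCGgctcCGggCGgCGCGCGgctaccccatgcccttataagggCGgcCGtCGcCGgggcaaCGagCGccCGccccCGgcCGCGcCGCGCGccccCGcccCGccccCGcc

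The windows of Nr1i3 and Nr1i2, which encode the xenobiotic sensors CAR and PXR, each held 2 CpG dinucleotides. Nr1h2 had 13, Esrra 22 and Nr2f6 42 in the same length. Over 32851 start regions in the RefSeq table the median was 6, and over the 54 regions of the 35 receptor genes with an entry it was 11.5. Among genes with an entry, the highest CpG count of a gene had a median of 16.5 in the 22 expressed receptors and of 15 in the other 13. The 2 medians are close, and no test was made of them. The core motif AGGTCA, to which many of these receptors bind, was searched on both strands and was present in 8 of the 54 regions (14.8%), against 14.0% of all regions. The 8 regions belong to Rxra, Pparg (2 starts), Thrb, Rarg, Rxrg, Nr6a1 and Nr0b1. The GC box GGGCGG, on both strands, was in 24 of the 54 regions (44.4%) and in 32.7% of all regions.

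Rxra was the most abundant of the 39 genes, with 91.3, 92.1, 112 and 109 FPKM in livers 1 to 4, and alone made up 22.5% to 24.9% of the summed receptor transcripts. After it came Nr1h3, Nr2f6, Nr1i3 and Nr1i2, and these 5 genes together held 64.0% to 64.8% of the sum. The median mean level of the 24 expressed receptors was 8.40 FPKM, against 7.83 FPKM over 10541 expressed genes. Of the 23 pairs of neighbours in this order, 19 had overlapping ranges. In 3 of these (Nr2f6 over Nr1i3, Rora over Thrb and Esr1 over Rxrg) the order was nevertheless the same within each of the 4 livers, and in the other 16 it was not. The 4 gaps without overlap lay between Rxra and Nr1h3, between Nr1i3 and Nr1i2, between Nr1i2 and Nr1h2, and between Rxrb and Rora.

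**Figure D1:**
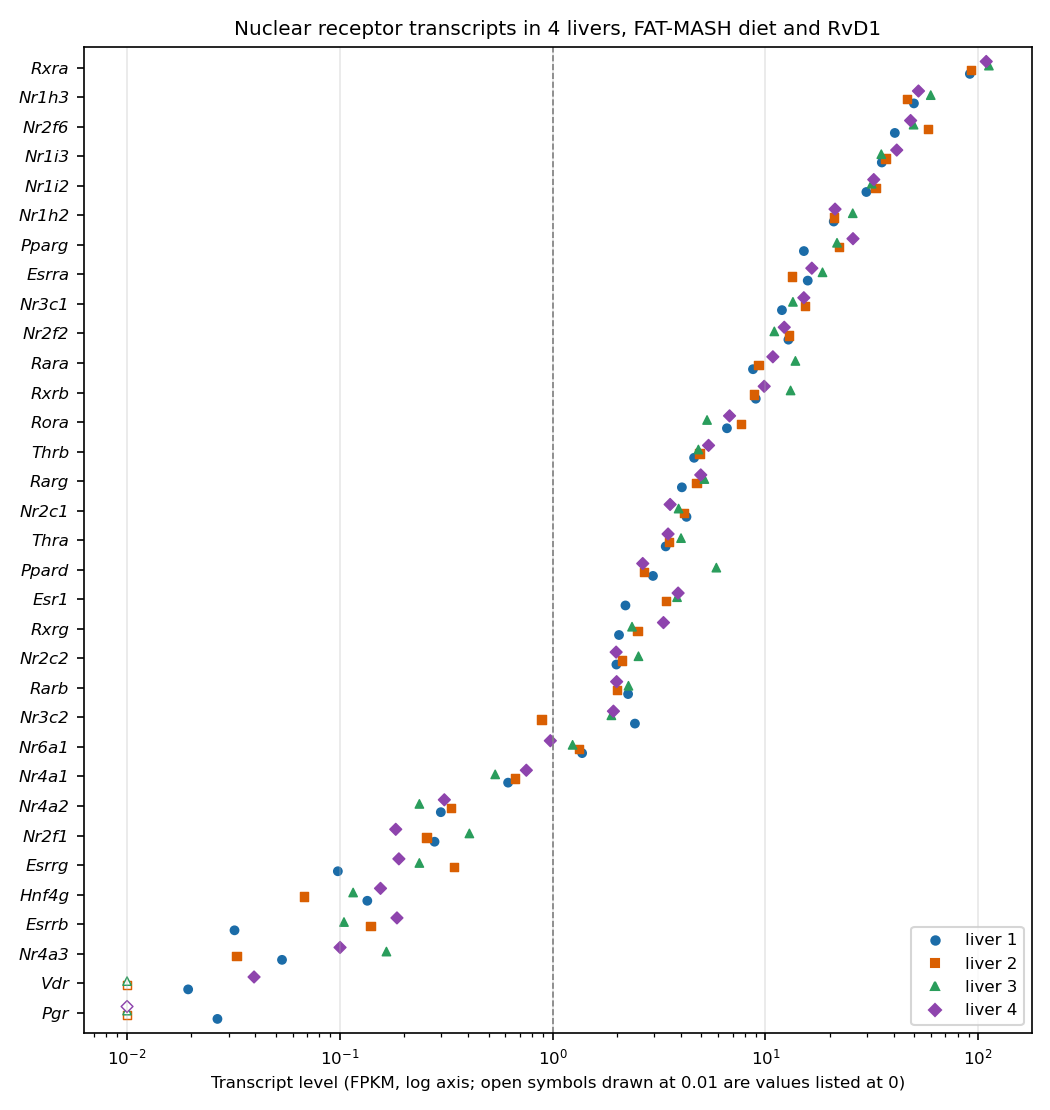
Transcript level of 33 receptor genes in each of the 4 livers (FPKM, log axis), ordered by mean, with the dashed line at 1 FPKM and values listed at 0 drawn as open symbols at the left edge. The 6 genes listed at 0 in every liver are left out. Rxra stands above all others at 91.3 FPKM or more, and Ppard is set apart in liver 3 at 5.88 FPKM.

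The RXR genes encode the shared heterodimer partner. Rxra (XLOC_011193, chromosome 2, 27677201 to 27763319) had a mean of 101 ± 11.0 FPKM (SD, n = 4), and its values fell into a lower pair, livers 1 and 2, and a higher pair, livers 3 and 4. Rxrb was 9.003, 8.82, 13.1 and 9.86 FPKM in livers 1 to 4, highest in liver 3. Rxrg, which is best known from muscle and brain, was 2.05, 2.50, 2.36 and 3.32 FPKM. Rxra therefore formed 88.8 ± 0.645% (SD, n = 4) of RXR transcripts, with its lowest share, 87.9%, in liver 3. The summed RXR level was 114 ± 12.9 FPKM (SD, n = 4). The 12 member genes whose products pair with RXR (the LXR, PXR, CAR, RAR, thyroid hormone, vitamin D and PPAR genes, without Ppara) summed to 1.71 ± 0.0721 times the RXR level (SD, n = 4). With Ppara and Nr1h4, the fatty acid and bile acid receptors that are not among the 39 genes, the ratio was 2.96 ± 0.243 (SD, n = 4). Transcripts of the partners thus exceeded those of RXR in every liver, from 1.64 to 1.80 times for the 12 genes.

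The liver X receptors (LXR) sense oxysterols and drive cholesterol efflux and lipogenic genes. Nr1h3 (LXR alpha), known from hepatocytes and macrophages, was 49.8, 46.3, 59.8 and 52.4 FPKM in livers 1 to 4. Nr1h2 (LXR beta), which is broadly expressed, was 20.9, 21.0, 25.7 and 21.2 FPKM. Both were highest in liver 3, and for Nr1h2 the other 3 livers lay within a narrow band. The ratio of Nr1h3 to Nr1h2 held at 2.34 ± 0.110 (SD, n = 4), and Nr1h3 formed 70.1 ± 0.989% of the pair. Of 9 LXR target genes, 8 were expressed, and the ninth is Scd1, whose listed 0 may be a failed estimate. The sterol exporters Abca1 and Abcg5 had 19.9 ± 1.11 and 119.9 ± 14.1 FPKM (SD, n = 4). Over all expressed genes, 17.9%, 22.0%, 26.8% and 33.3% were highest in livers 1 to 4, and 20.7%, 29.9%, 31.4% and 18.1% were lowest there. Of the 8 LXR targets, Srebf1 and Lpcat3 were highest in liver 3, as the receptors were, 2 were highest in liver 2 and 4 in liver 4. Srebf1, the lipogenic regulator, was 166, 135, 207 and 175 FPKM. Mylip, the degrader of the LDL receptor, was 2.51, 3.93, 2.80 and 3.04 FPKM.

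Nr1i3 and Nr1i2 encode CAR and PXR, which switch on enzymes and transporters of drug and bile acid clearance. Nr1i3 was 35.2, 36.6, 35.0 and 41.4 FPKM in livers 1 to 4, and Nr1i2 was 29.8, 32.9, 31.6 and 32.3 FPKM. Nr1i2 had the smallest spread of all expressed receptors, with an SD of 0.06 on the log2(FPKM + 1) scale. In all 4 livers Nr1i3 exceeded Nr1i2, by 1.17 ± 0.0812 times (SD, n = 4). Of 11 target genes of this pair, 8 were expressed. Cyp3a11, the PXR target, was 1938, 1416, 1961 and 2085 FPKM. Cyp2b10, the classical CAR target, was 0.156, 0.828, 0.596 and 0.153 FPKM, higher in livers 2 and 3 than in livers 1 and 4. Cyp2b9 and Akr1b7 also had means below 1 FPKM. Other genes of the list were abundant, with means of 209 FPKM for Cyp2a5, 425 for Ugt1a1, 393 for Por and 258 for Sult2a8. Of the 8 expressed targets, 2, 0, 2 and 4 were highest in livers 1 to 4. Cyp2c55 had 1.84 ± 0.256 FPKM (SD, n = 4). The span that the table gives for Nr1i3 (chromosome 1, 171213970 to 171226379) is also the span of Apoa2 and Tomm40l, which were looked up after this was seen. Apoa2 was 17254, 11166, 20665 and 13518 FPKM, lowest in liver 2 and highest in liver 3. Tomm40l was 15.2, 14.1, 15.5 and 12.6 FPKM. Whether fragments of these neighbours enter the Nr1i3 value was not tested.

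The retinoic acid receptors (RAR) are bound by all-trans retinoic acid, whose precursors are stored in stellate cells. Rara was 8.74, 9.29, 13.8 and 10.8 FPKM in livers 1 to 4, highest in liver 3. Rarg had 4.73 ± 0.485 FPKM and Rarb, a gene that retinoic acid itself induces, 2.13 ± 0.154 FPKM (each SD, n = 4). Rara formed 60.5 ± 3.33% of RAR transcripts, from 57.9% in liver 2 to 65.0% in liver 3. Cyp26a1, the retinoic acid hydroxylase and a RAR target, was 6.52, 7.49, 12.7 and 9.36 FPKM, the same order of livers as Rara. Of the 8 expressed genes of retinoid handling and RAR targets it was the only one highest in liver 3. Rarb did not have the order of Rara, with 2.26, 2.00, 2.27 and 2.00 FPKM. Dhrs3, a retinal reductase, was 99.4, 101, 101 and 119 FPKM. The list holds 14 genes in all, of which the binding protein genes Crabp1 and Crabp2 were listed at 0 in all 4 livers.

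The thyroid hormone receptors regulate metabolic rate and hepatic lipid turnover. Thrb, the main hepatic form, was 4.62, 4.90, 4.84 and 5.40 FPKM in livers 1 to 4, and Thra was 3.40, 3.51, 4.01 and 3.49 FPKM. The 2 ranges did not overlap, and Thrb formed 57.8 ± 2.50% of the pair (SD, n = 4). The GENCODE vM21 gene of Thra overlaps Nr1d1 on the other strand, but the deposited span of Thra (chromosome 11, 98741873 to 98765111) ends before Nr1d1 starts at 98767932. Dio1, which activates thyroid hormone, had 121 ± 22.6 FPKM (SD, n = 4), while Dio3, which inactivates it, was at most 0.0925 FPKM. Thrsp, a lipogenic thyroid hormone target, was 1215, 1267, 2012 and 1289 FPKM, highest in liver 3, while Me1, another lipogenic target, was 138, 119, 93.3 and 101 FPKM, lowest there. Of the 6 expressed genes of this list, 2, 1, 2 and 1 were highest in livers 1 to 4. Klf9 was 20.9, 30.4, 27.3 and 26.9 FPKM.

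Vdr, the vitamin D receptor, had 0.0194 FPKM in liver 1 and 0.0395 FPKM in liver 4, about 1.58 and 2.95 fragments, and was listed at 0 in livers 2 and 3. Hepatocytes are known to carry little of it, and stellate and immune cells more. The hydroxylase genes that make the precursor of its ligand were expressed, with Cyp2r1 at 8.98 ± 0.738 FPKM and Cyp27a1 at 262 ± 23.6 FPKM (each SD, n = 4). Cyp24a1, the best known Vdr target, was listed at 0 in all 4 livers. Of the 10 stellate cell and fibroblast markers, 10 were expressed, with sums from 228 to 338 FPKM.

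**Figure D2:**
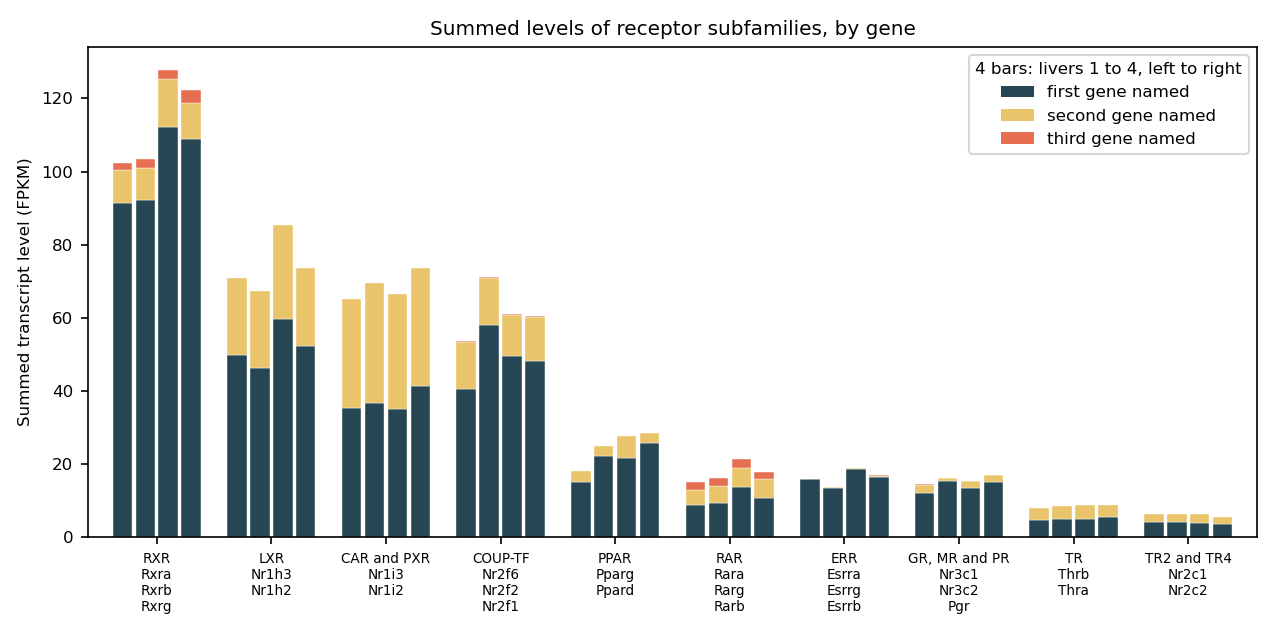
Summed transcript level (FPKM) of 10 receptor subfamilies, with 4 bars for livers 1 to 4 from left to right and each bar divided by gene in the order named under the axis. The RXR bars, between 102 and 128 FPKM, are mostly Rxra, whereas the CAR and PXR bars are divided almost evenly between Nr1i3 and Nr1i2.

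The peroxisome proliferator-activated receptors (PPAR) are bound by fatty acids and their derivatives. Pparg, the adipogenic form that rises in fatty liver, was 15.2, 22.2, 21.7 and 25.8 FPKM in livers 1 to 4, lowest in liver 1. Ppard, the broadly expressed form, was 2.96, 2.696, 5.88 and 2.65 FPKM, so that liver 3 stood apart from the other 3 livers. Ppara, which is not among the 39 genes, had 60.6 ± 4.83 FPKM, or 71.1 ± 4.27% of the transcripts of the 3 genes (each SD, n = 4). Of 9 Pparg targets of fatty liver in the table, 7 were expressed. Cidec, a lipid droplet protein, was 57.8, 28.8, 27.3 and 40.8 FPKM, and Mogat1, an acyltransferase, 2.97, 1.05, 1.51 and 1.93 FPKM. Of the 7, 3 (these and the droplet protein gene Plin2) were highest in liver 1, in which Pparg was lowest, 2 in liver 2, and 2, Plin4 and Fitm1, in liver 4, in which Pparg was highest. The 7 genes therefore had no shared order of livers. Fabp4 was highest in liver 2, at 37.5 FPKM against 11.1 to 18.2 FPKM in the others.

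Of 5 adipocyte markers, only Cfd had a mean of at least 1 FPKM. Lep, Plin1 and Adig were listed at 0 in all 4 livers, Adipoq was at most 0.0528 FPKM, and the list summed to 0.609 to 4.49 FPKM, nearly all of it Cfd. The Ppard row (chromosome 17, 28127351 to 28301469) shares its span with Zfp523, Def6 and Scube3, which were looked up after this was seen. Zfp523 was 7.77, 6.60, 7.80 and 6.54 FPKM, and was not apart in liver 3, and Scube3 was 0.176, 0.243, 0.525 and 0.384 FPKM, highest in liver 3. Whether fragments of the neighbours enter the Ppard value was not tested. Of 6 genes that Ppard shares with other PPAR, 5 were expressed, with Plin5 and Angptl4 highest in liver 3, Cpt1a and Acadvl in liver 4, where Ppard was lowest, and Pdk4 in liver 2. Plin5, a lipid droplet protein, was 17.1, 17.2, 27.6 and 18.2 FPKM, also apart in liver 3. Pdk4, a kinase that limits glucose oxidation, was 3.73, 5.66, 3.36 and 1.58 FPKM and Angptl4 had 61.3 ± 4.79 FPKM (SD, n = 4).

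**Figure D3:**
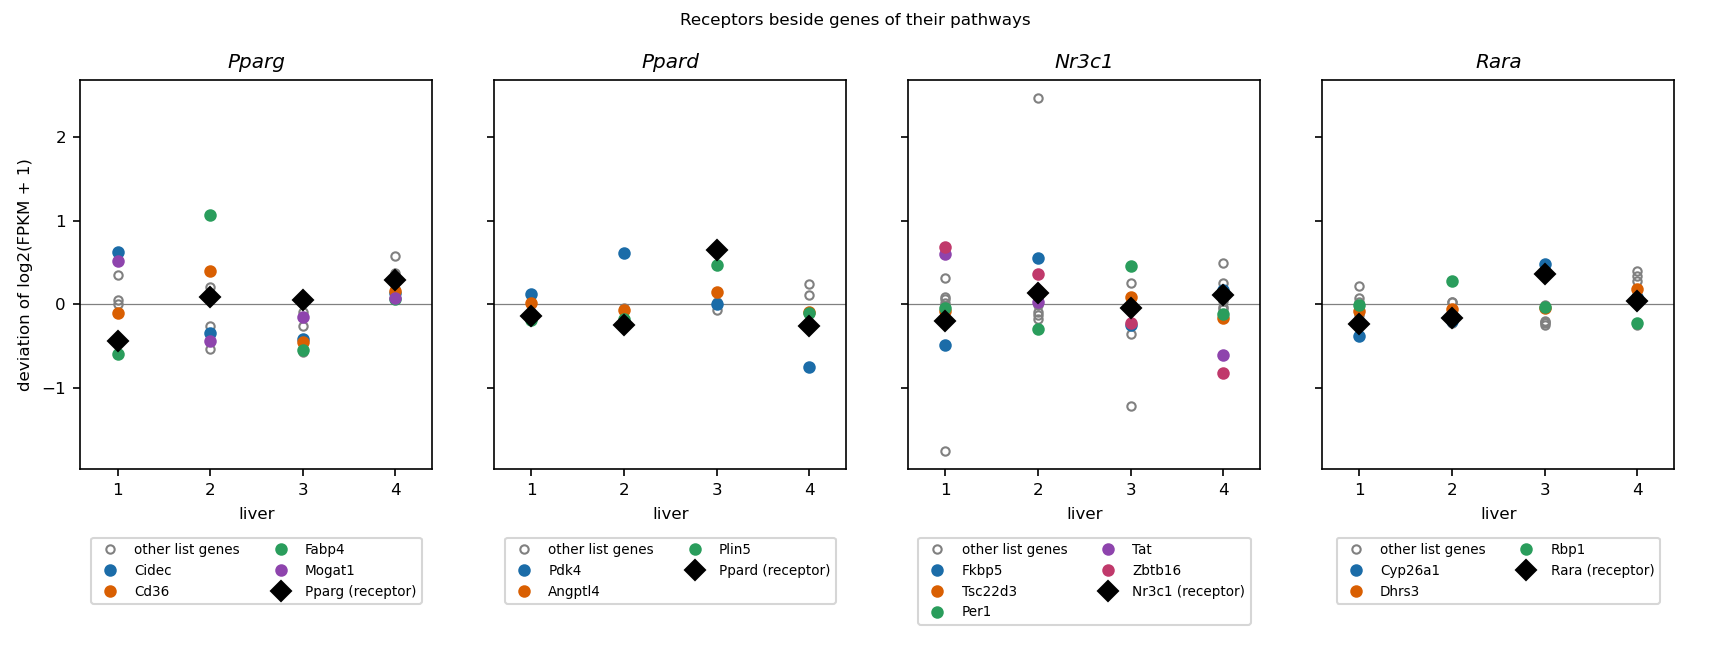
Deviation of log2(FPKM + 1) from the mean of the 4 livers for Pparg, Ppard, Nr3c1 and Rara (black diamonds) and for the expressed genes of their pathway lists (coloured points for named genes, grey circles for the others), by liver. Rara and Cyp26a1 are both highest in liver 3, and Ppard and Plin5 likewise, whereas Pparg is lowest in liver 1, where Cidec and Mogat1 are highest. The transcripts of Rara, Cyp26a1, Ppard and Plin5 have a GC content of 53.8% to 59.8%. Of all expressed genes above the median of 50.3%, 40.1% were highest in liver 3. The part of GC content in these matches was not tested. The grey circle far above the others in liver 2 is Mt2.

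The next group of receptors binds DNA largely without a known hormone. Nr2f6, a member of the COUP-TF group, was 40.5, 57.9, 49.7 and 48.1 FPKM in livers 1 to 4, highest in liver 2. Nr2f2, known from vein endothelium and mesenchymal cells, was 12.8, 12.9, 11.0 and 12.3 FPKM, and Nr2f1 had 0.281 ± 0.0929 FPKM (SD, n = 4). Endothelial markers, 7 of 8 expressed, summed to 46.4, 61.1, 51.7 and 58.1 FPKM, which is not the order of Nr2f2. Stellate cell and fibroblast markers, 10 of 10 expressed, summed to 266, 338, 228 and 237 FPKM. That is the order of Nr2f2, but Dcn alone gave 140, 194, 117 and 141 FPKM of the sum, and 6 of the 10 were lowest in liver 4 and 4 in liver 3. The part of these cells in the level of Nr2f2 was not tested. The testicular receptors Nr2c1 and Nr2c2, which repress genes at RXR-type elements, had 3.96 ± 0.303 and 2.16 ± 0.256 FPKM (each SD, n = 4). Hnf4g, a paralogue of the hepatocyte factor Hnf4a, was at most 0.155 FPKM, whereas Hnf4a itself, not among the 39 genes, was 93.9, 104, 156 and 118 FPKM. The neural and retinal receptors Nr2e1 and Nr2e3 were listed at 0 in all 4 livers.

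Of the steroid receptors, the glucocorticoid receptor Nr3c1 was the most abundant. It was 12.0, 15.3, 13.5 and 15.1 FPKM in livers 1 to 4 and formed 88.5 ± 4.77% (SD, n = 4) of its group with Nr3c2 and Pgr. The mineralocorticoid receptor Nr3c2 was 2.44, 0.888, 1.89 and 1.93 FPKM, lowest in liver 2, a 2.74-fold range that was the widest among the expressed receptors. Pgr, the progesterone receptor, was 0.0266 FPKM in liver 1 (about 3.48 fragments) and listed at 0 in the others. Hsd11b1, which regenerates active glucocorticoid, had 277 ± 47.7 FPKM (SD, n = 4), while Hsd11b2, which inactivates it, was at most 0.0712 FPKM. Of 13 genes of glucocorticoid supply and response, 12 were expressed. Their targets did not share an order of livers. Fkbp5 was 7.31, 16.1, 8.80 and 12.1 FPKM, the order of Nr3c1, but Tat was 780, 522, 505 and 335 FPKM and Zbtb16 was 4.88, 3.71, 2.12 and 1.06 FPKM, both highest in liver 1, where Nr3c1 was lowest. Of the 12, 4 were highest in liver 1, 4 in liver 2 and 2 in each of livers 3 and 4. The metallothionein gene Mt2 varied most, with 21.9, 430.35, 32.4 and 109 FPKM, and also had the order of Nr3c1.

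Esr1, the oestrogen receptor of hepatocytes, was 2.198, 3.42, 3.84 and 3.89 FPKM in livers 1 to 4, lowest in liver 1 as Pparg was. Esr2 was listed at 0 in all 4 livers, as was the oestrogen-forming aromatase Cyp19a1. The oestrogen-related receptors have no hormone and work with the coactivators Ppargc1a and Ppargc1b on mitochondrial genes. Esrra was 15.8, 13.3, 18.5 and 16.5 FPKM, lowest in liver 2, and formed 97.9 ± 1.11% of this group (SD, n = 4). The deposited span of Esrra is also that of Trmt112 (35.2, 38.8, 34.2 and 33.6 FPKM), on the other strand in GENCODE and looked up after this was seen, and Nr2c2 likewise shares its span with Mrps25. Whether their fragments enter the receptor values was not tested. Esrrg and Esrrb had 0.217 ± 0.103 and 0.115 ± 0.0647 FPKM (each SD, n = 4), or between 2.56 and 34.2 fragments in a liver. Of the 7 expressed genes of the ERR list other than Esrra, 4 were lowest in liver 2 (Ppargc1b, Cycs, Atp5b and Idh3a), against 29.9% of expressed genes. Ppargc1b was 2.02, 1.04, 1.94 and 1.73 FPKM. Ppargc1a was instead highest in liver 2, at 2.75 FPKM.

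The NR4A receptors are induced within minutes by hormones and stress and have no known ligand in most settings. Nr4a1 was 0.618, 0.663, 0.537 and 0.752 FPKM in livers 1 to 4, Nr4a2 had 0.294 ± 0.0414 FPKM and Nr4a3 0.0880 ± 0.0589 FPKM (each SD, n = 4). None of the 3 reached 1 FPKM in a liver. Of 10 other immediate early genes, 7 were expressed. Egr1 was 5.41, 6.28, 3.04 and 1.89 FPKM and Dusp1 was 14.0, 17.4, 26.6 and 20.7 FPKM, and neither order of livers was that of Nr4a1. Rora, a sterol-binding receptor that activates clock genes, was 6.59, 7.68, 5.32 and 6.78 FPKM, lowest in liver 3. The neuronal Rorb was listed at 0 in all 4 livers. Arntl, a gene that ROR proteins activate, had a mean below 1 FPKM, with 0.549, 0.862, 1.12 and 0.554 FPKM, highest in liver 3. Its list of clock genes holds 10, of which 8 were expressed. Of these 8, 3, 2, 2 and 1 were highest in livers 1 to 4, and 2, 3, 1 and 2 were lowest there. Nr6a1, the germ cell factor, had 1.23 ± 0.179 FPKM (SD, n = 4). The steroidogenic regulators Nr5a1 and Nr0b1, known from adrenal and gonad, were listed at 0 in all 4 livers, while the hepatic Nr5a2 had 9.56 ± 0.748 FPKM (SD, n = 4).

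Transcripts of the cofactors with which these receptors act reached a mean of 1 FPKM for 13 of 13 coactivator genes and 8 of 9 corepressor genes, the exception being Lcor at 0.303 ± 0.102 FPKM (SD, n = 4). Of the 13 coactivators, 9 were lowest in liver 2, against 29.9% of expressed genes, and 6 highest in liver 3, against 26.8%. Of the 8 expressed corepressors, 4 were lowest in liver 2 and 1, Ncor1, was highest there. Ncor1 was 10.5, 11.0, 10.6 and 10.7 FPKM in livers 1 to 4. Nr0b2, an atypical receptor that represses its relatives and is not among the 39 genes, was 61.1, 34.3, 36.1 and 15.7 FPKM.

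Between livers, the expressed receptors varied about as much as other expressed genes. The median SD of log2(FPKM + 1) over the 4 livers was 0.15 for the 24 receptors and 0.16 for all 10541 expressed genes. An SD under 0.25 was found for 19 of the 24, against 81.7% of expressed genes. The 5 genes with a larger SD were Ppard (0.44), Nr3c2 (0.37), Pparg (0.31), Esr1 (0.29) and Rara (0.27). A liver was set apart for 2 of the 24 receptors, Ppard and Nr1h2, both in liver 3, where the gap of the extreme liver to its nearest neighbour, divided by the whole range, exceeded Dixon's 95% limit. That was so for 5.46% of all expressed genes, 35.4% of them in liver 3. After median-ratio scaling of the libraries Ppard still stood apart, while Nr1h2 did not and Rxrb did, against 5.33% of all expressed genes.

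**Figure D4:**
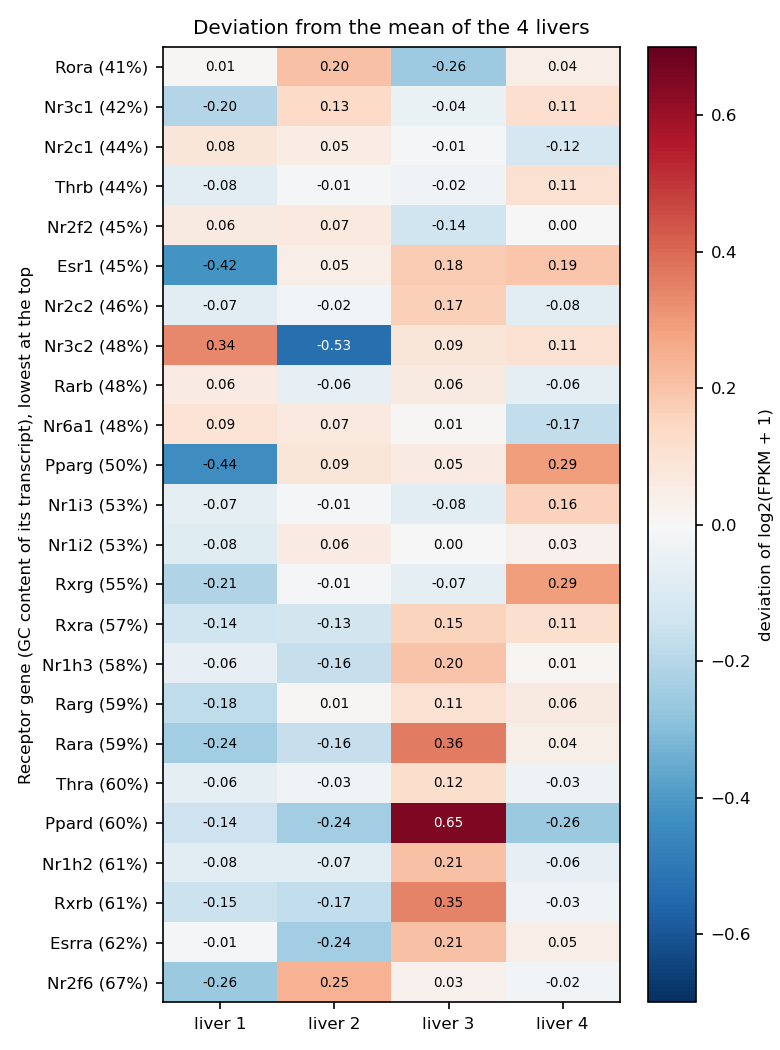
Deviation of log2(FPKM + 1) from the mean of the 4 livers for each of the 24 expressed receptor genes, ordered by the GC content of the transcript from low (top) to high (bottom). Liver 3 is red for most genes in the lower part, with Ppard highest at 0.65, and Nr3c2 in liver 2 is the lowest value at -0.53.

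Liver 3 held the highest value for 11 of the 24 expressed receptors, against 26.8% of expressed genes. Livers 1, 2 and 4 held it for 3, 5 and 5 receptors, against 17.9%, 22.0% and 33.3% of expressed genes. Liver 1 held the lowest value for 12 of the 24, against 20.7% of expressed genes, and 6 were above their own mean there, against 47.2%. Livers 2, 3 and 4 held the lowest value for 4, 3 and 5 receptors, against 29.9%, 31.4% and 18.1%. The median deviation of the receptors from their own means was 0.07 in liver 3 (all expressed genes, -0.01) and -0.08 in liver 1 (all expressed genes, -0.01). It was -0.01 in liver 2 and 0.03 in liver 4. Because each deviation is taken from the gene's own mean, the livers are not independent of each other here.

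Most of the receptors that were highest in liver 3 have GC-rich transcripts. Over the 9997 expressed genes with a GENCODE protein-coding transcript, the deviation in liver 3 had Pearson's r of 0.36 with the GC content of the transcript, and over the 24 receptors r was 0.57 (across genes, which are not independent replicates and share the libraries). In the other livers r over all these genes was between -0.21 and -0.04. In the class with the highest GC content, when genes were split into 5 of equal size, the median deviation in liver 3 was 0.11 for all genes and 0.20 for the 10 receptors in it. Of the 13 receptors above the median GC content of 50.3%, 9 were highest in liver 3 (40.1% of all such genes), and of the 11 others, 2 were (13.6%).

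After the median deviation of genes of like GC content was subtracted in each liver, the median deviation of the receptors in liver 3 was 0.08. Then 11 of 24 were highest there, of which 8 were among the 11 before the adjustment. The share of all expressed genes highest there after the adjustment was not computed, so this count has no background to be read against. This adjustment was added after the data were seen. It lowered the deviation in liver 3 from 0.65 to 0.52 for Ppard, from 0.36 to 0.23 for Rara, from 0.35 to 0.22 for Rxrb and from 0.21 to 0.08 for Nr1h2. For receptors with GC-poor transcripts it raised it, from 0.17 to 0.25 for Nr2c2, from 0.18 to 0.27 for Esr1, from -0.02 to 0.09 for Thrb and from -0.01 to 0.09 for Nr2c1. Rxra was then highest in liver 4 in place of liver 3. Nr1h2 no longer stood apart in liver 3, Ppard still did, and Nr3c1 and Nr6a1 then had 1 liver apart. After the adjustment 5.36% of all expressed genes had 1 liver apart. The part of GC content in the levels of single receptors was not tested further.

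**Figure D5:**
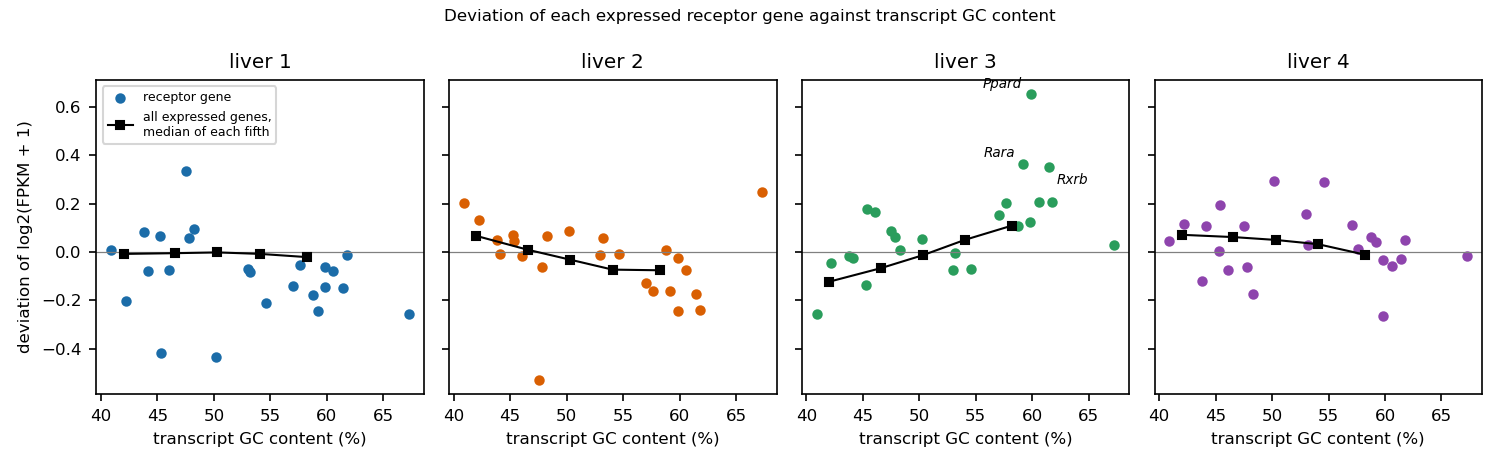
Deviation of each of the 24 expressed receptor genes (points) from its mean over the livers, on the log2(FPKM + 1) scale, against the GC content of its transcript (%), with 1 panel per liver. Black squares are the medians of all expressed genes in 5 classes of GC content of equal size, which go from -0.12 to 0.11 in liver 3, where Ppard, Rara and Rxrb lie above them.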

How the data were processed

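Bulk RNA of 4 livers was sequenced after poly(A) enrichment, per the labels' protocols. The deposited table holds 1 value per gene and liver. Its unit is not written in the header. The values were taken to be FPKM made by the authors, since they are not whole numbers and carry identifiers of the form Cufflinks writes. Per the submitters' processing notes, FastQC 0.10.1, Trim Galore 0.6.3, cutadapt, STAR 2.7.6a, Cufflinks 2.2.1 and build mm10 were used. The annotation is not given in the sources used here. Columns were matched through the sample descriptions, with 0 unmatched. Starts were printed with 1 added, which raised exact matches to RefSeq starts from 2.99% to 52.1% of 22610 symbols.

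FPKM were analysed as deposited and as log2(FPKM + 1), a scale that shrinks the differences of low genes, with Python 3.11.15, numpy 2.4.6 and pandas 2.3.3. Expressed genes are those whose 4 livers averaged 1 FPKM or more. Fragments were estimated from the lowest values of genes with a single GENCODE transcript over 800 bases, less 200 bases for an assumed fragment length. FPKM times length was taken between 25 and 75, a window that bounds the estimate and can return a similar value at other depths. The estimate is therefore approximate and is not a measured library size. GC content was that of the longest protein-coding GENCODE vM21 transcript. The only test was Dixon's ratio, checked with the other measures on simulated data. Samples of 1 group allow no comparison, and the labels do not say whether each library is a separate animal beyond its liver number. All 39 genes are named, and other genes come from lists of pathways, cofactors and cell markers unless marked as looked up later. A few genes were removed from these lists before counting and are not reported here. The members and lists were chosen with earlier results of these data known. Alternatives were other minimums, pseudocounts and scalings, leaving out each liver and, added later, the GC adjustment.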

Additional observations from a re-analysis of the deposited data

Results flagged for a closer look

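For these values 1 liver stood apart from the other 3 by more than the 95% critical value of Dixon's ratio. A total of 234 values were examined (the receptors above 0, all genes of the pathway and cell marker lists, and the subfamily shares) and 13 were marked, where chance marks about 1 in 20. In liver 3 these were Ppard at 5.88 FPKM, Nr1h2 at 25.7 FPKM, Plin5 at 27.6 FPKM, Thrsp at 2012 FPKM, Dio3 at 0.0925 FPKM and the share of Rxra among RXR transcripts at 87.9%. In liver 4 they were Ugt1a1, a conjugating enzyme, at 496 FPKM, Dhrs3 at 119 FPKM, the apolipoprotein gene Apoa1 at 15343 FPKM, Cux2 at 0.191 FPKM and the bile duct marker Sox9, the lowest of the 4 livers, at 3.37 FPKM. In liver 1 they were Gsta1, a glutathione transferase, at 5.26 FPKM and Pgr at 0.0266 FPKM, the single liver in which Pgr was above 0. With 3 values listed at 0 any other value is marked, so the mark of Pgr says nothing about its level.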

How the results depend on the processing

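The 24 receptors with a mean of at least 1 FPKM became 13 at a minimum of 5 FPKM, 25 at 0.5 FPKM and 30 at 0.1 FPKM. A level of 1 FPKM in every liver was reached by 22. The share of all rows is given only for a mean of 1 FPKM (43.7%), so the other counts have no background beside them. Leaving out each liver in turn kept the count at 24. The median SD of the expressed receptors was between 0.11 and 0.16 over all alternatives. It was 0.13 against 0.17 for all expressed genes without liver 1, 0.11 against 0.14 without liver 3, 0.16 against 0.15 without liver 4 and 0.12 against 0.11 at a pseudocount of 5 FPKM, so which was larger depended on the livers kept and the pseudocount. Ppard and Nr1h2 stood apart under a pseudocount of 0.1 FPKM and on linear FPKM, against 5.46% and 5.64% of all expressed genes. After median-ratio scaling the count was also 2 of 24, against 5.33% of all expressed genes, but the genes were Ppard and Rxrb. After the GC adjustment it was 3 of 24 (Ppard, Nr3c1 and Nr6a1), against 5.36% of all expressed genes. The cause was not tested. The median deviation stayed negative in liver 1 and positive in liver 3 in the 4 alternatives run for it (a pseudocount of 0.1 FPKM, median-ratio scaling, a minimum of 5 FPKM and the GC adjustment). In liver 2 it was 0.01 both after median-ratio scaling and after the GC adjustment, against -0.01 as deposited, and in liver 4 it was -0.02 and 0.01, against 0.03. No paired analysis was possible because the samples form a single group. By the approximate estimate of depth, values below about 0.05 FPKM rest on a few fragments, so levels there were not detectable with precision.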
